A study of Sus scrofa with 8 samples.

Results

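Glial growth factor 2 (GGF2) is a form of neuregulin-1, a growth factor that binds ERBB receptors. In the heart, neuregulin-1 is released mainly by endothelial cells and acts on ERBB4 and ERBB2 of cardiac muscle cells, which pass the signal on through the PI3K and AKT and the MAPK pathways. It is known for its roles in growth and survival of heart muscle cells and has been given to animals with heart failure. After an infarct, the muscle far from the scar is remodelled, with growth of muscle cells and with division of fibroblasts, endothelial cells and immune cells.

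The comparison described here sets all animals that received GGF2, at whichever dose, against untreated animals, with attention to genes that lay on the same side of the untreated animals at both doses. It uses all 8 arrays of the series, 5 treated and 3 untreated, each from a different castrated male Yorkshire pig under 1 year of age, with a mean weight of 54.5 kg. All 8 animals had had a myocardial infarction, so the untreated group is an infarcted group and no uninfarcted heart was compared. Tissue was left ventricular muscle remote from the infarct. Of the treated animals, 3 were given 0.67 mg/kg at each infusion and 2 were given 2.0 mg/kg, called the low and the high dose, over 4 weeks. The labels name no vehicle infusion for the untreated animals. The tag numbers of most of the pigs run in neighbouring pairs. Both high-dose animals form 1 pair, untreated replicates 1 and 3 another, and untreated replicate 2 and low-dose replicate 1 a further pair. Low-dose replicates 2 and 3 belong to no pair. What a shared pair stands for is not given, and since the high-dose group is 1 pair, pair and high dose cannot be told apart. Each value is a log2 signal from RMA, so a difference of 1 is a 2-fold difference in signal.

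The labelled tissue carried the markers of heart muscle. The 13 measured cardiac muscle markers had means over all animals from 7.95 for NPPA to 14.87 for MYH7. All 13 lay above the lower quartile of all values, 3.77, which is used here as a mark of signal close to background. Most values lie above that mark, so passing it says little about the tissue. Array medians lay between 5.34 and 5.39, and correlations between arrays across probe sets lay between 0.981 and 0.994. Controls at the 3' end exceeded those at the 5' end of the same transcripts, which tracks RNA quality. The mean gap was 2.93 to 3.36 in untreated and 3.00 to 3.78 in treated animals, which overlap. By dose it was 3.28 to 3.78 at the low and 3.00 to 3.03 at the high dose, so the doses did not overlap. For actin the low-dose animals (5.48 to 6.04) lay above the untreated (4.88 to 5.26) and the high-dose ones (4.92 to 5.18). The part of RNA quality in the results was not tested. Heart muscle is a mixture of cells, and in such bulk tissue fewer cells of a type and less RNA per cell cannot be told apart.

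No single probe set separated treated from untreated animals after correction. In limma, 0 of 23999 probe sets (0%) had an adjusted p under 0.05, and the smallest adjusted p was 0.993. Groups without overlap, that is with all treated animals on one side of all untreated ones, were found for 387 probe sets in the higher (1.61%) and 272 in the lower direction (1.13%). At an unadjusted p under 0.05 there were 848 probe sets (3.53%), 452 higher (1.88%) and 396 lower (1.65%) in treated animals, where 1200 would be expected if no probe set differed and all p-values were uniform. The count of probe sets passing was also 0 in each of the 8 fits that left out 1 animal and in a fit with 1 mean for each dose. Nothing below therefore passed the test over all probe sets, and "higher" and "lower" describe the values of these 8 animals.

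To find genes that lay on the same side at both doses, a probe set was counted when the mean of the low-dose animals and the mean of the high-dose animals both differed from the untreated mean by at least 0.5 on the log2 scale (1.41-fold) in the same direction, and when all 5 treated animals lay beyond all 3 untreated ones. This count rule was met by 63 of 23999 probe sets (0.263%), of which 47 were lower (0.196%) and 16 higher (0.0667%) in treated animals. Both dose differences were taken from the same 3 untreated animals, so an untreated mean that is high or low by chance moves both. Because the rule used the same values as the fit, the p-values of its members are given as a description. The 63 probe sets carried 61 different ID stems, and 2 stems held 2 of them each, so a few may measure the same transcript.

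Of the 47 lower probe sets, 19 carried 1 gene symbol, for 19 genes, and 28 carried none. Of the 16 higher ones, 6 carried 1 symbol and 10 none. Lower probe sets differed by -2.09 to -0.54 with a median of -0.85, and higher ones by 0.51 to 2.27 with a median of 0.84. Just inside the minimum, PMM1, PAAF1 and ACSS3 had a smaller dose difference of 0.50, 0.51 and 0.51. Just outside it, MTMR7, HSP70.2 and DAP had 0.49, 0.49 and 0.48. The brightest HSP70.2 probe set was past the minimum, at 0.58 at the low and 0.54 at the high dose, but overlapped.

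**Figure D1:**
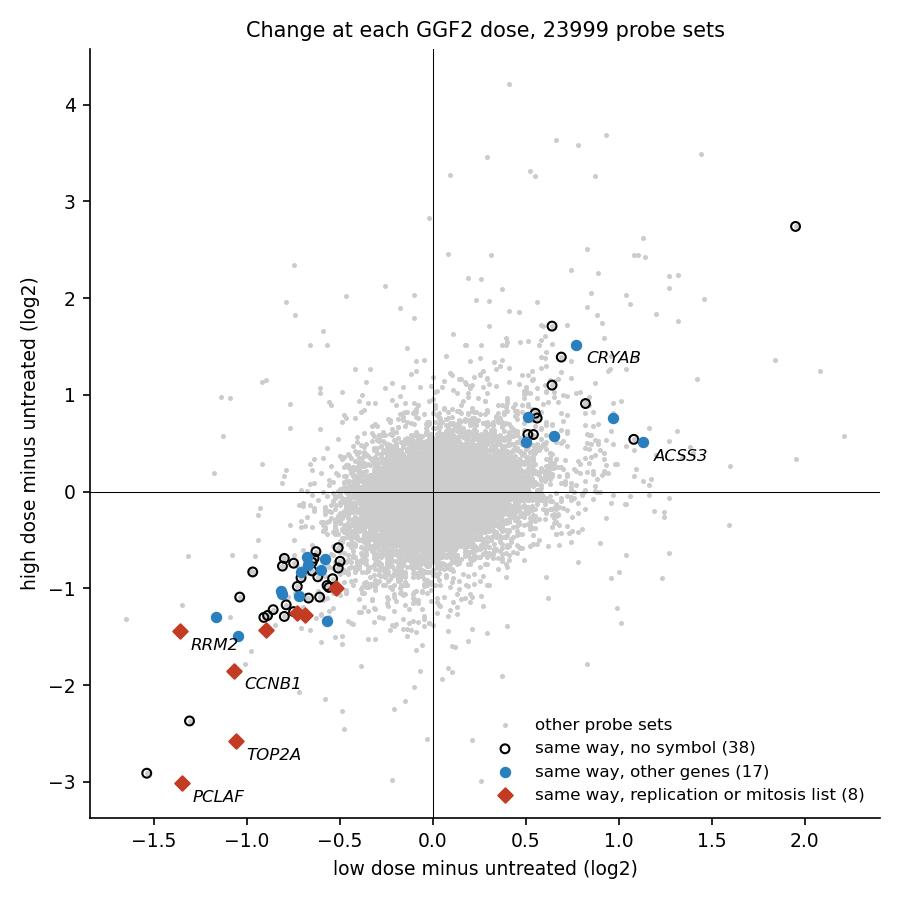
Each point is 1 of 23999 probe sets, with the low-dose mean minus the untreated mean on the x axis and the high-dose mean minus the untreated mean on the y axis (log2). The 63 probe sets that met the count rule are marked, and the 8 genes of the replication or mitosis lists among them (red diamonds) all lie in the lower left, with PCLAF and TOP2A furthest down.

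The lower group held many genes of cell division. Of its 19 named genes, 8 belonged to the DNA replication or mitosis lists (PTTG1, CCNB1, TOP2A, NUSAP1, UBE2C, RRM2, PCLAF and STMN1), while these lists make up 48 of the 6765 named genes on the array (0.71%). Of the 6 higher genes 0 belonged to them. Members and lists were chosen with earlier results of these data known, so these shares are a description and no test. The kinases MELK and CDK2 and the cell division gene CDCA3, which are also known from dividing cells, stood outside the lists and met the count rule too.

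RRM2 encodes the small subunit of ribonucleotide reductase, which makes the building blocks of DNA. It measured 6.05, 5.39 and 4.95 in the untreated animals, 3.98, 4.15 and 4.17 at the low dose and 3.92 and 4.13 at the high dose. The treated animals lay close together, with an SD of 0.11 against 0.55 in the untreated ones, and both doses lay at one level. The difference was -1.39 ± 0.21 (SE; limma unadjusted p = 8.28e-05, adjusted p = 0.993), and high minus low dose was -0.08 ± 0.27. The treated values were not far above the mark for background.

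PCLAF, a partner of the replication clamp PCNA, had the largest difference of the named genes under the count rule. Its values were 8.01, 6.97 and 6.76 in untreated animals, 5.82, 6.32 and 5.57 at the low dose and 4.54 and 3.95 at the high dose. The 3 groups did not overlap, and the order ran from untreated through low to high dose. Treated animals were lower by a mean of 4.03-fold, at -2.01 ± 0.52 on the log2 scale, with -1.35 at the low and -3.01 at the high dose. A second PCLAF probe set lay under the mark for background (mean 3.55), with a difference of -0.04.

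Topoisomerase II alpha (TOP2A) untangles DNA in dividing cells. Untreated animals had 7.94, 7.16 and 7.07, low-dose animals 6.26, 7.01 and 5.71 and high-dose animals 4.78 and 4.83. One low-dose animal came within 0.06 of the lowest untreated one, while both high-dose animals stood well apart. TOP2A was at -1.67 ± 0.49 over both doses, at -1.06 at the low and at -2.58 at the high dose.

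Cyclin B1 (CCNB1), which with CDK1 starts mitosis, measured 6.96, 5.93 and 5.70 in untreated animals, 5.08, 5.37 and 4.94 at the low dose and 4.20 and 4.49 at the high dose. The difference over both doses was -1.38 ± 0.33. Securin (PTTG1) holds back the separation of sister chromatids. It stood at 6.73, 6.37 and 6.30 without treatment, at 5.84, 5.67 and 5.83 with the low dose and at 5.15 and 5.23 with the high dose. These are again 3 groups without overlap, with narrow spread in each, and PTTG1 was at -0.92 ± 0.19.

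NUSAP1, which bundles spindle microtubules, measured 8.70, 7.75 and 8.04 in untreated, 7.47, 7.60 and 6.71 in low-dose and 6.36 and 7.11 in high-dose animals. It was at -1.11 ± 0.31, and a dimmer one (mean 3.98) at -0.31. The ubiquitin-conjugating enzyme UBE2C works with the anaphase-promoting complex. Its values were 6.88, 6.16 and 5.59, then 5.57, 5.56 and 5.30, then 4.96 and 4.96, so the lowest untreated animal and 2 of the low-dose animals were almost level. UBE2C was at -0.94 ± 0.27, and at -0.60 without untreated replicate 1. A second UBE2C probe set, under the mark for background (mean 3.59), was at -0.07.

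Stathmin (STMN1), which takes microtubules apart, was the most abundant signal of the group, at 10.39, 9.94 and 10.02 in untreated, 9.63, 9.80 and 9.36 in low-dose and 9.20 and 9.03 in high-dose animals. Its difference was -0.72 ± 0.19. MELK, a kinase of dividing cells, measured 5.44, 4.75 and 4.86 in untreated, 4.07, 4.44 and 3.38 in low-dose and 3.80 and 3.25 in high-dose animals, and was at -1.23 ± 0.28 with several treated values close to background. CDK2, a kinase of the S phase, was at -0.63 ± 0.18, and its highest treated and lowest untreated animals were both at 6.00 after rounding. The dimmer CDK2 probe sets, with means of 4.50 and 4.29, were at -0.02 and 0.01. CDCA3 was at -0.71 ± 0.21, and at -0.44 without untreated replicate 1.

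**Figure D2:**
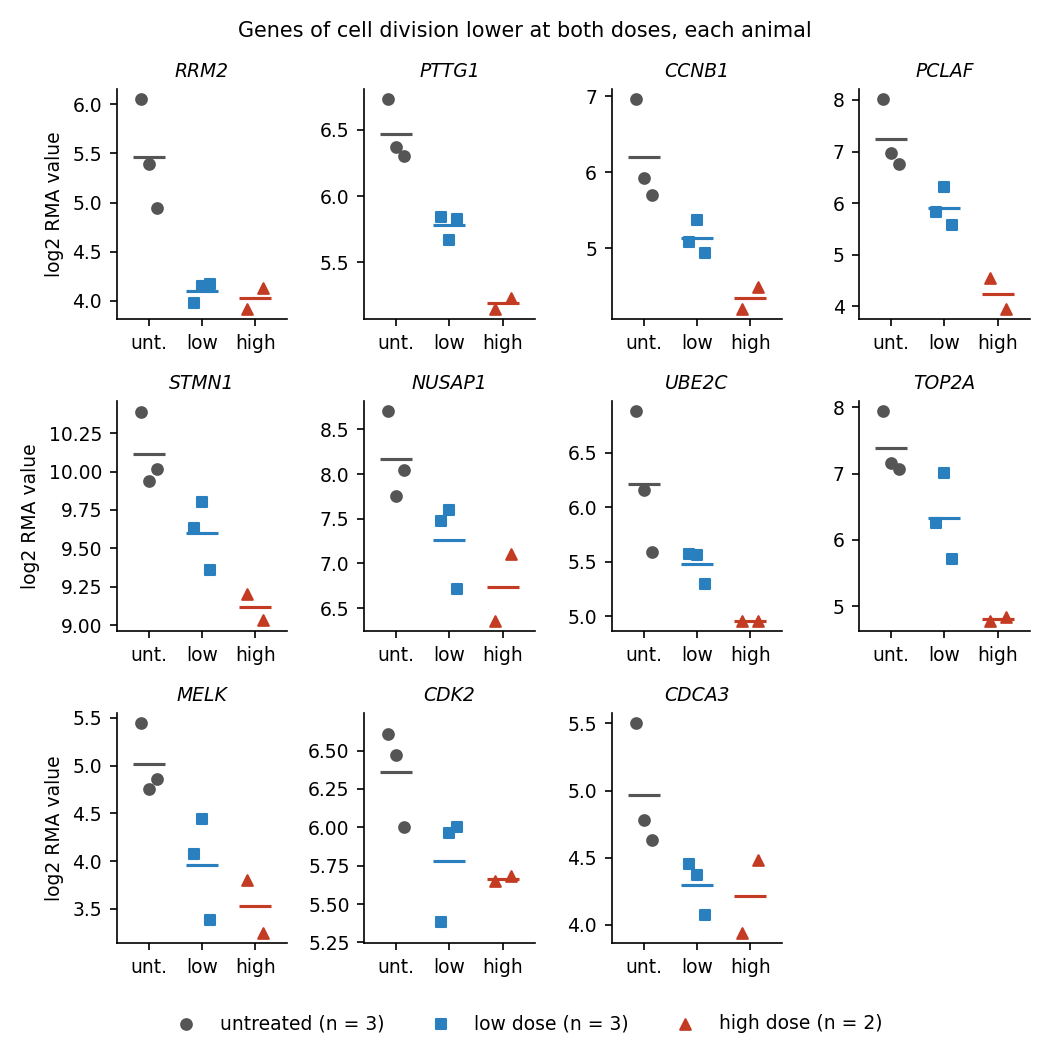
Log2 RMA values (y axis, scaled for each gene) of 11 genes of cell division in each animal, by group, with horizontal bars at group means. Untreated replicate 1 is the highest animal for all 11 genes. The 5 treated animals lie below the 3 untreated ones in each panel, as the count rule demands, for CDK2 by less than the rounding.

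The 11 genes shared the animals that carried their extremes. All 11 were highest in untreated replicate 1, and in 10 of them the lowest value came from a high-dose animal. The count rule fixed that the highest animal was untreated and the lowest treated, but not which animal it was. In 6 of the 11 (PTTG1, CCNB1, TOP2A, UBE2C, PCLAF and STMN1) both high-dose animals lay below all 3 low-dose animals. Without untreated replicate 1 the differences of the 8 genes on the lists were smaller but kept their direction, from -1.63 for PCLAF to -0.58 for STMN1. The number of list genes that met the count rule was then 6 in place of 8, and it was 13 without untreated replicate 2. Genes of one process measured in the same animals are not independent of each other.

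Over the whole lists, with the brightest probe set of each gene, the replication and mitosis genes were lower in nearly every member. Given how the lists were chosen, these counts too are a description. Of the 18 measured DNA replication genes, 18 were lower in treated animals, where 49.8% of all genes were, and 16 were lower at both doses, where 28.9% of all genes were. The list had a median of -0.21, against 0.00 for all 6765 genes, and 0 members passed the limma test. In 6 members the groups did not overlap (1.2% of all genes in this direction): RRM2, PCLAF, FEN1, TYMS, MCM2 and RPA2. The flap endonuclease FEN1, which trims lagging strand fragments, measured 6.78, 6.75 and 6.97 in untreated and 6.37 to 6.55 in treated animals, and was at -0.37 ± 0.09. The helicase subunit MCM2 was at -0.28, thymidylate synthase (TYMS) at -0.28 close to background, and RPA2, which coats single-stranded DNA, at -0.25 with its nearest animals level at 6.64. PCNA overlapped at -0.41 ± 0.14, with 8.89, 8.64 and 8.45 against 8.26, 8.34, 8.49, 7.97 and 8.20. RRM1 and ORC6 were at -0.06 and -0.01 and lay on opposite sides of untreated at the low and high doses.

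Of the 30 measured mitosis genes, 28 were lower in treated animals (49.8% of all genes) and 27 at both doses (28.9%). Their median was -0.38. An unadjusted p under 0.05 in limma was found for 17 (3.75% of all genes), and 0 passed. In 9 the groups did not overlap (1.2% of all genes in this direction), and 6 met the count rule (0.237%). Beside the genes above, these 9 were HMMR, which sat under the mark for background, the kinetochore gene NDC80 at -0.32 ± 0.10 and the mitotic kinase PLK1 at -0.27 ± 0.10. Several members with larger differences overlapped. RACGAP1, needed for cytokinesis, had 6.42, 5.90 and 5.31 in untreated, 4.87, 5.78 and 4.83 in low-dose and 3.79 and 3.81 in high-dose animals, and NUF2, a kinetochore gene, was at -0.79 ± 0.25. The spindle checkpoint gene BUB3 was at 0.00 ± 0.09 and the phosphatase CDC25C, under the mark for background, at 0.18.

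The means of these 2 lists followed the groups, as the plot of list means by animal shows. With every gene set relative to its own average in the 8 animals, the DNA replication mean was 0.15 to 0.36 in untreated, -0.13 to -0.06 in low-dose and -0.23 to -0.18 in high-dose animals. The mitosis mean was 0.16 to 0.60, -0.17 to 0.06 and -0.40 to -0.36. With 1 animal left out at a time the number of members lower at both doses stayed between 14 and 17 for replication and between 24 and 28 for mitosis. Leaving out both untreated replicate 2 and low-dose replicate 1, the pair of neighbouring tags that spans treated and untreated animals, gave 16 and 27.

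**Figure D3:**
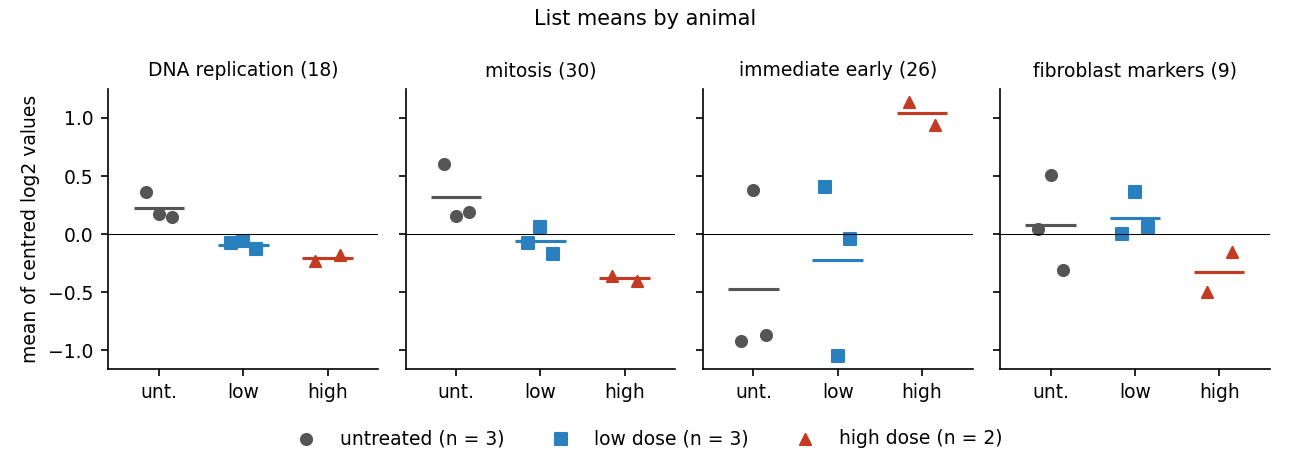
Mean of the centred log2 values of 4 gene lists in each animal (y axis), by group, with the number of measured genes in brackets and bars at group means. Replication and mitosis means of the 5 treated animals lie below those of the 3 untreated ones, while immediate early and fibroblast means overlap between treated and untreated animals.

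Markers of cells that could carry such genes were measured beside them. Fibroblast markers overlapped, with a summed linear signal of 11020 to 17434 in untreated and 7084 to 17127 in treated animals, and 0 of 9 members had groups without overlap. Their median was 0.06 at the low and -0.53 at the high dose. The 14 macrophage markers summed to 3036 to 3931 and 2291 to 4049, with medians of 0.02 and -0.42 and ITGAM near background. The 19 endothelial markers summed to 6715 to 7718 and 5634 to 8541, with KDR and SELE near background, and the 14 lymphocyte markers to 365 to 399 and 358 to 386, with CD4, IL2RG and CD3G near background. In these 4 lists 0 members had groups without overlap (1.2% of all genes in the lower and 1.66% in the higher direction). Their part in the lower cell division signals was not tested.

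Among the other lower genes, IREB2 had the smallest p of all 23999 probe sets. It encodes an iron regulatory protein that binds messenger RNAs of iron uptake and storage. IREB2 measured 6.29, 6.15 and 6.28 in untreated animals, 5.67, 5.32 and 5.60 at the low dose and 5.46 and 5.35 at the high dose. Both groups were tight, and the gap between them was wider than either group's range. The difference was -0.76 ± 0.11 (SE; limma unadjusted p = 5.64e-05, adjusted p = 0.993), and it stayed between -0.81 and -0.72 with 1 animal left out. Of the 19 measured iron and heme genes IREB2 was the 1 that met the count rule (0.237% of all genes in this direction). Their median was -0.02. At both doses 6 of these 19 were lower (28.9% of all genes) and 3 were higher (31%).

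NREP, a small cytoplasmic protein known from regenerating nerve and from myofibroblasts, was the brightest of the lower genes. It measured 12.05, 11.85 and 12.33 in untreated, 11.41, 10.93 and 11.43 in low-dose and 10.98 and 11.11 in high-dose animals. All treated animals lay below the untreated ones, and NREP was at -0.90 ± 0.16. PKIB, an inhibitor of protein kinase A, had 7.27, 7.86 and 6.79 in untreated, 6.04, 6.57 and 5.81 in low-dose and 5.89 and 6.12 in high-dose animals, and was at -1.22 ± 0.24. Both genes were at similar levels at both doses, with high minus low dose at -0.21 ± 0.19 for NREP and -0.13 ± 0.31 for PKIB.

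Genes of protein breakdown were represented by UBXN6 and MARCH6. UBXN6, an adaptor of the ATPase VCP that pulls proteins out of complexes, measured 10.33, 10.81 and 10.81 in untreated, 10.05, 9.85 and 10.26 in low-dose and 9.89 and 9.80 in high-dose animals, and was at -0.68 ± 0.15. MARCH6, a ubiquitin ligase of the endoplasmic reticulum, was at -0.68 ± 0.15 on the probe set that met the count rule (mean 6.25). Its 3 brighter probe sets, with means of 9.34, 8.65 and 8.14, were at 0.14, -0.04 and 0.18, so the MARCH6 probe sets disagreed. The 38 proteasome and ubiquitin genes had a median of 0.00, with 10 lower (28.9% of all genes) and 12 higher (31%) at both doses.

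EFCAB11, an EF-hand protein, was at -0.86 ± 0.21 and its brighter probe set, which overlapped, at -0.70 ± 0.25 (limma unadjusted p = 0.019). FAM210B, a mitochondrial protein, measured 7.53, 7.48 and 9.32 in untreated animals and 7.0 to 7.33 in treated ones. Its difference of -0.91 ± 0.37 rested on untreated replicate 3, and without that animal it was -0.31. A brighter FAM210B probe set was at -0.59 and a dimmer probe set (mean 6.40) at -0.24, both with overlap. Atrial natriuretic peptide (NPPA), a hormone of stretched heart muscle, had 8.45, 8.59 and 8.45 in untreated animals, 8.05, 7.44 and 8.28 at the low dose and 8.21 and 6.09 at the high dose. All treated animals were lower, high-dose replicate 2 by the largest step, low-dose replicate 2 by the next largest and the others by small ones. NPPA was at -0.88 ± 0.45 (limma unadjusted p = 0.0789), and at -0.50 without high-dose replicate 2.

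Of the 6 higher genes, ATP1B4, PMM1 and PAAF1 met the count rule on their brightest probe set, as 3 of 6765 genes did (0.0443%), and EIF4H, CRYAB and ACSS3 on a dimmer one. ATP1B4, a muscle protein related to the beta subunits of the sodium pump, measured 3.51, 3.64 and 3.58 in untreated animals, below the mark for background, and 4.45, 4.11, 4.12, 4.16 and 4.13 in treated ones. The difference of 0.62 ± 0.10 thus starts from a level that holds no exact size. PMM1, a phosphomannomutase of sugar metabolism, had 4.82, 4.58 and 4.72 in untreated, 5.08, 5.20 and 5.33 in low-dose and 5.23 and 5.21 in high-dose animals. Treated animals differed little among themselves, and PMM1 was at 0.51 ± 0.10.

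EIF4H, a helper of the helicase that opens messenger RNA for translation, measured 5.36, 6.16 and 5.55 in untreated, 6.68, 6.33 and 6.97 in low-dose and 6.64 and 6.27 in high-dose animals, at 0.89 ± 0.21. Its brighter probe set (mean 9.40) was at -0.17. PAAF1, which binds the ATPases of the proteasome, was at 0.61 ± 0.16, with 0.50 and 0.13 on dimmer probe sets. ACSS3, a mitochondrial acyl-CoA synthetase, showed 0.89 ± 0.24 on a dim probe set (mean 4.96), and its 2 much brighter ones, both close to 9.9, were at 0.05 and -0.08. The small heat shock protein alpha B-crystallin (CRYAB) measured 4.83, 5.0 and 5.39 in untreated, 6.06, 5.90 and 5.58 in low-dose and 6.17 and 7.01 in high-dose animals, a difference of 1.07 ± 0.28. Its bright probe set (mean 13.1) was at 0.12 ± 0.17 and overlapped. For EIF4H, ACSS3, CRYAB and MARCH6 the brighter probe sets thus did not show the difference.

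**Figure D4:**
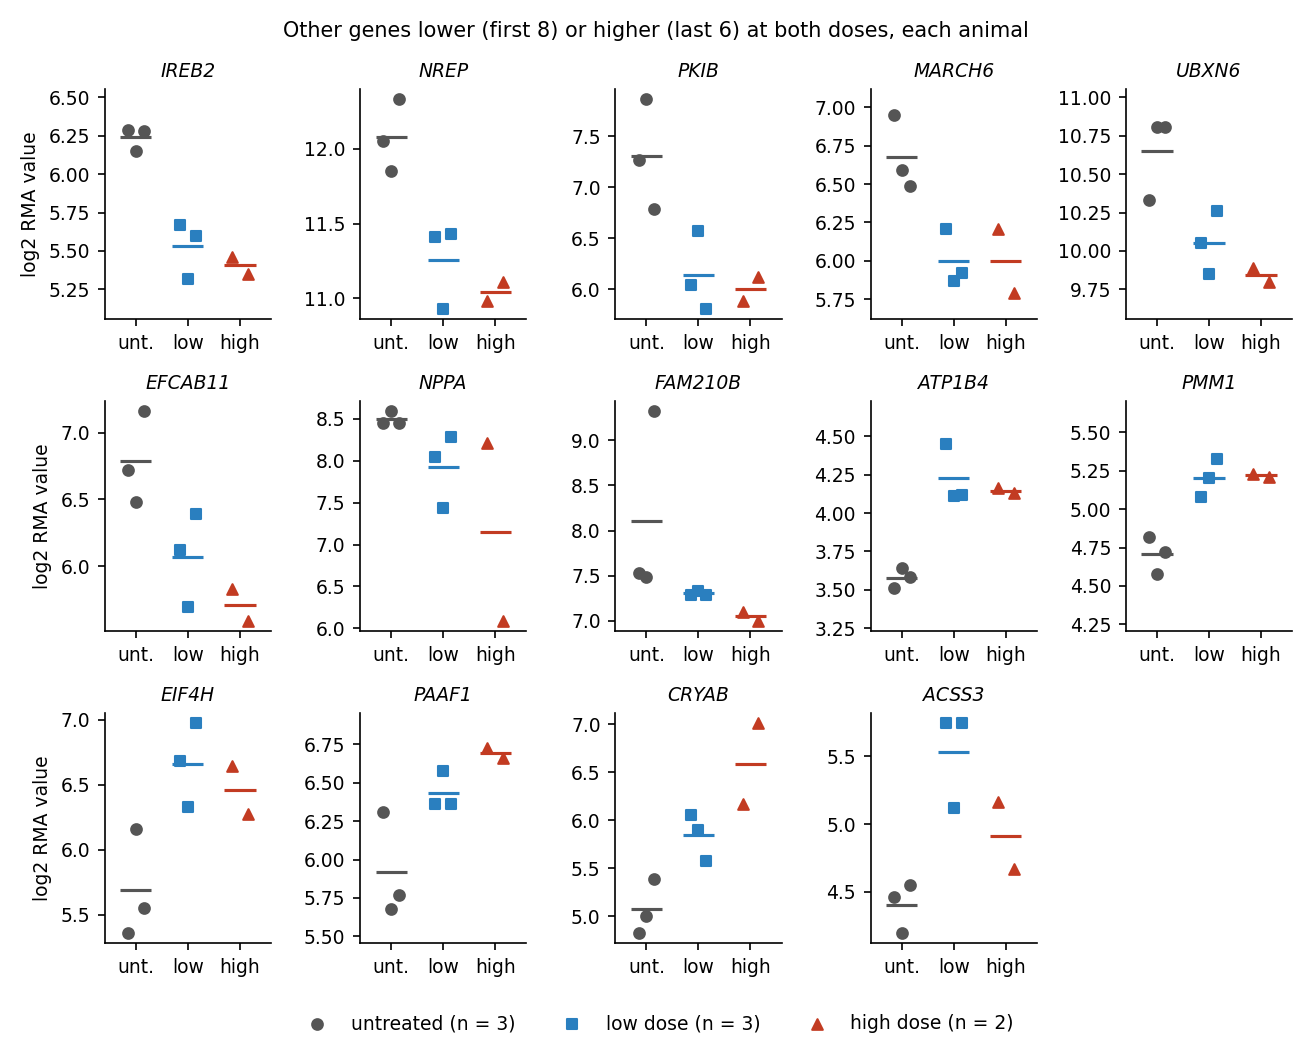
Log2 RMA values (y axis, scaled for each gene) of 8 further genes lower and 6 genes higher at both doses, in each animal, by group, with bars at group means. IREB2 and PMM1 are tight within groups, while the FAM210B mean rests on 1 untreated animal at 9.32 and the high-dose NPPA mean on 1 animal at 6.09.

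The probe sets without a symbol included larger differences than most named genes. A probe set of the array's cluster Ssc.13992 was the furthest higher, with 4.71, 5.85 and 4.81 in untreated, 7.15, 6.59 and 7.49 in low-dose and 7.25 and 8.48 in high-dose animals, a difference of 2.27 ± 0.40. One of cluster Ssc.24505 was the furthest lower, with 8.17, 7.39 and 7.29, then 6.08, 6.26 and 5.89, then 4.47 and 4.95, a difference of -2.09 ± 0.41. Both had 3 groups in the order of dose, with overlap between the doses for the higher one. The platform annotation names no gene for them.

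The doses were then set against each other for these members. Among the 47 lower probe sets the median was -0.73 at the low and -1.03 at the high dose, and 42 lay further from untreated at the high dose. Among the 16 higher ones the medians were 0.65 and 0.76, and 12 lay further at the high dose. The share of all probe sets that lay further at the high dose is not given here. The high-dose mean rests on fewer animals than the low-dose mean and so varies more by chance. Whether these counts exceed what that alone would give was not tested. The 3' to 5' gap of the controls was also larger in all low-dose than in both high-dose animals, and its part here was not tested. High minus low dose passed in limma for 0 of the 63, with smallest adjusted p-values of 0.192 among the lower and 0.261 among the higher ones. Over all probe sets 6 of 23999 passed (0.025%). At an unadjusted p under 0.05 there were 7 of 47 and 4 of 16, beside 10.2% of all probe sets.

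Some members stood at one level at both doses. High minus low dose was 0.00 ± 0.19 for MARCH6, 0.01 ± 0.13 for PMM1, -0.08 ± 0.13 for ATP1B4 and -0.12 ± 0.14 for IREB2. Other members were further away at the high dose in these animals, with high minus low dose at -1.66 ± 0.38 for PCLAF (limma adjusted p = 0.256), -1.52 ± 0.37 for TOP2A (0.262) and -0.59 ± 0.15 for PTTG1 (0.266). ACSS3 went the other way, with 1.13 at the low and 0.51 at the high dose. None of these dose differences passed, and the intervals for the level ones do not show that the doses act alike.

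Of the 35 gene lists, the remaining ones showed few members with groups apart. Immediate early genes, the first to respond when a cell is stimulated, had the largest median, 0.68, with 26 of 26 higher in treated animals, where 50.2% of all genes were. Yet 0 of 26 had groups without overlap (1.66% of all genes in the higher direction). The list mean, centred as above, was -0.92 to 0.38 in untreated, -1.05 to 0.41 in low-dose and 0.94 to 1.14 in high-dose animals. The low-dose animals thus spanned the range of the untreated ones, and only the high-dose animals lay above it. An unadjusted p under 0.05 in limma was found for 2 (3.75% of all genes), and 0 passed. EGR1 measured 10.05, 12.70 and 10.17 in untreated animals and 12.60, 11.17, 12.33, 12.97 and 12.86 in treated ones, so untreated replicate 2 lay among the treated animals and low-dose replicate 2 below it. FOS was at -0.75 at the low and 2.34 at the high dose and at 0.48 ± 0.97 over both. The list median was 0.44 without untreated replicate 1 and 1.07 without untreated replicate 2.

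Heat shock genes and other chaperones had a median of 0.14, with 34 of 39 higher in treated animals (50.2% of all genes) and 19 higher at both doses (31% of all genes). Leaving out untreated replicate 3 gave a median of 0.08, and leaving out low-dose replicate 2 one of 0.21. In 3 of 39 the groups did not overlap (1.66% of all genes in the higher direction). The endoplasmic reticulum chaperone HSPA5 had 11.68, 11.68 and 11.79 in untreated and 12.11, 11.87, 12.10, 11.87 and 12.41 in treated animals, at 0.36 ± 0.13. The mitochondrial HSPA9 was at 0.18 ± 0.09 and HSP90AA1 at 0.21 ± 0.11. Among the 16 genes of endoplasmic reticulum stress the chaperone HYOU1 was the 1 without overlap (1.66% of all genes in the higher direction), at 0.29 ± 0.11. The list's median was 0.07. Each of these lists had 0 members passing.

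Fatty acid genes had a median of 0.06, with -0.01 at the low and 0.19 at the high dose, and 17 of 40 were higher at both (31% of all genes). In 5 of 40 the groups did not overlap (1.66% of all genes in the higher direction), which were SIRT3, ETFB, CPT1B, PPARD and CPT2. The mitochondrial deacetylase SIRT3 measured 7.97, 7.88 and 7.81 in untreated, 8.34, 8.31 and 8.12 in low-dose and 8.67 and 8.49 in high-dose animals, at 0.50 ± 0.13. CPT1B, which lets fatty acids into mitochondria of muscle, was at 0.32 ± 0.15, and the electron carrier subunit ETFB at 0.26 ± 0.11. The citric acid cycle, oxidative phosphorylation and glycolysis lists had medians of 0.02, 0.00 and 0.02. Groups were apart in 0 of 29, 1 of 37 and 0 of 22 members (1.2% of all genes in the lower and 1.66% in the higher direction).

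Other matrix proteins had a median of -0.28, with 19 of 27 lower at both doses (28.9% of all genes), and medians of -0.06 at the low and -0.63 at the high dose. The median over both doses was -0.18 without high-dose replicate 1 and -0.44 without low-dose replicate 2. The laminin chain LAMB1 was the 1 member without overlap (1.2% of all genes in the lower direction), at -0.37 ± 0.17. Periostin (POSTN), a matrix protein of activated fibroblasts, had 10.08, 9.30 and 9.23 in untreated, 9.08, 8.71 and 9.36 in low-dose and 6.68 and 7.48 in high-dose animals, and overlapped through the low-dose group. Collagens and TGF-beta genes had medians of -0.02 and -0.04, with 0 of 12 and 0 of 18 members apart in the lower direction (1.2% of all genes). In the higher direction (1.66% of all genes) the TGF-beta gene ID2 was apart at 0.21 ± 0.09, with signals near background (mean 3.65). Antioxidant genes had a median of 0.05. In that list VEGFA, an angiogenic growth factor, was lower without overlap at -0.33 ± 0.11 and GSTA4 higher at 0.42 ± 0.17. Of all genes, 1.2% were apart in the lower and 1.66% in the higher direction. VEGFA was at 0.10 on a probe set almost as bright and at 0.04 and -0.04 on dimmer ones.

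Genes of the ERBB pathway itself gave little. The annotation named no probe set for NRG1, ERBB2, ERBB3 or ERBB4, which are not analysed here. The 13 measured members of the ERBB list had a median of 0.00. Of them 0 had groups apart, where 1.2% of all genes were in the lower and 1.66% in the higher direction. At both doses 3 were lower (28.9% of all genes) and 3 higher (31%). The ligand amphiregulin (AREG) had 3.50, 5.44 and 2.91 in untreated, 6.39, 3.49 and 3.95 in low-dose and 8.09 and 7.07 in high-dose animals. Several of its untreated and low-dose values lay under the mark for background, so the size of the difference is not exact, and the groups overlapped. The 15 PI3K, AKT and MAPK genes had a median of 0.01, with 0 apart (1.2% and 1.66% of all genes). Contractile and calcium genes had medians of 0.03 and 0.04 across 21 and 18 genes, with 0 apart (1.2% and 1.66% of all genes). The calcium median was 0.12 without untreated replicate 1. MYH7, close to the top of the scale, was at 0.05 ± 0.08, and the calcium pump ATP2A2 at 0.05 ± 0.09. The 20 natriuretic and fetal genes had a median of 0.08, with 13 higher (31% of all genes) and 6 lower (28.9%) at both doses. The 13 cardiac muscle markers had a median of 0.02. NPPA was the member apart in both lists (1.2% of all genes in the lower direction). Brain natriuretic peptide (NPPB) was at -1.03 ± 0.70, with -0.21 at the low dose, and at -0.65 without high-dose replicate 1. Sarcolipin (SLN), which restrains the calcium pump, was at 1.45 ± 0.42, with 4.80, 4.56 and 5.35 in untreated and 5.79, 5.26, 7.25, 6.84 and 6.64 in treated animals, an overlap through low-dose replicate 2.

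Ribosomal protein genes had a median of -0.05, with 42 of 56 lower (49.8% of all genes) and 29 lower at both doses (28.9%). Without overlap, 2 were lower (1.2% of all genes) and 1 higher (1.66%), which was RPL26 with untreated values under the mark for background. Interferon genes had -0.06 (28 of 36 lower, 49.8% of all genes), cytokine genes 0.07 and apoptosis genes 0.01. Each had at most 1 member apart (1.2% of all genes in the lower and 1.66% in the higher direction). Leaving out untreated replicate 2 put the interferon median at 0.05, leaving out low-dose replicate 2 put it at -0.19, and the cytokine median was -0.01 without untreated replicate 3. Of the other cell type lists, the 5 epicardial and mesothelial markers had a median of 0.27. Of them 0 were apart (1.2% of all genes in the lower and 1.66% in the higher direction). WT1 was at 0.00 and the others were higher in treated animals. Keratin 8 (KRT8) measured 5.89, 5.66 and 5.36 in untreated, 8.37, 7.39 and 7.80 in low-dose and 6.58 and 5.84 in high-dose animals. Their summed linear signal was 153 to 275 in untreated and 225 to 515 in treated animals. Among the 10 smooth muscle and pericyte markers smoothelin (SMTN) was apart (1.66% of all genes in the higher direction), at 0.34 ± 0.10. Calponin (CNN1) was at 1.67 ± 0.50 with overlap. Adipocyte, nerve, erythrocyte and neutrophil lists had medians of -0.02, -0.01, -0.09 and 0.07. In each 0 members were apart (1.2% of all genes in the lower and 1.66% in the higher direction).

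**Figure D5:**
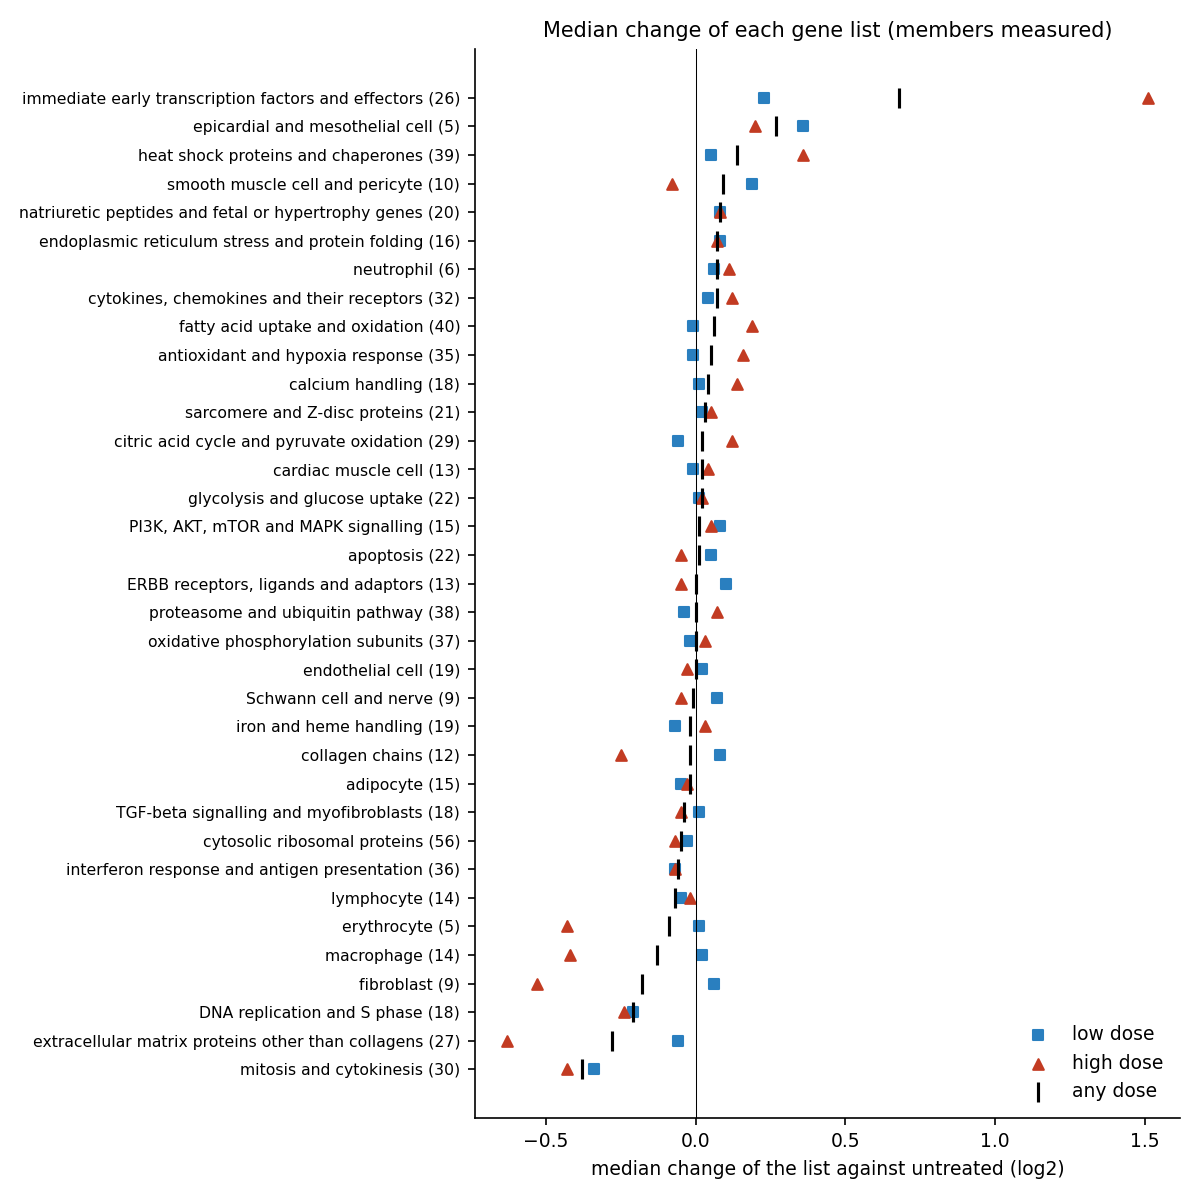
Median log2 change against untreated (x axis) of each of 35 gene lists at the low dose, at the high dose and over both, with the number of measured genes in brackets. The replication and mitosis lists lie left of 0 at both doses, whereas the matrix, fibroblast, macrophage and immediate early lists have their high-dose median far from their low-dose one.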

How the data were processed

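Total RNA was extracted with Trizol and hybridised to Affymetrix porcine arrays, 1 per animal, per the labels' protocols. The authors deposited log2 values for 24123 probe sets; RMA and Partek 6.6 are named per the submitters' processing notes, with settings not given in the sources used here. Quantile normalization in RMA removes changes shared by most genes of an array, and the number of arrays limits the precision. After 124 control probe sets were left out, 23999 were tested. The platform annotation gave 10069 probe sets 1 symbol, 198 several and 13732 none, for 6765 genes, and 9961 of the 10069 had a gene ID in the RefSeq table.

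limma 3.58.1 in R 4.3.3 compared 5 treated with 3 untreated arrays as 2 groups (6 residual and 3.26 prior degrees of freedom), two-sided, with Benjamini-Hochberg adjustment over all probe sets. A fit with 1 mean per group gave the dose differences. The fit with 2 groups and the count rule were checked on simulated data, and the fit with 1 mean per group was not. The named genes were up to 15 per direction with the smallest p among those under the count rule with 1 symbol and a group mean above 3.77, then up to 3 of each list under that rule, and NPPA, NPPB, MYH7, ATP2A2, AREG, FOS and POSTN; TOP2A, CDCA3, FAM210B and other list members were named after their values were seen. The 35 lists (24 pathways, 11 cell types) hold 1094 genes, of which 722 were measured; some genes stand on 2 lists. Members and lists were chosen with earlier results of these data known. Replicate numbers follow the order of the samples and pair nothing.

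Alternatives changed the groups in the fit, the variance prior, array weights, a filter on dim probe sets, the normalization, the threshold, the minimum change, the probe sets of a gene, the animals included, and the treatment of 1 pair of neighbouring tag numbers.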

Additional observations from a re-analysis of the deposited data

Results flagged for a closer look

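ATP1B4 in the 5 treated animals had 1 animal apart: low-dose replicate 1 was at 4.45, and the next highest treated animal at 4.16. All 31 named genes were checked for 1 animal apart among the 5 treated ones, and 1 was found; chance gives such a result in about 1 in 20 groups. Without that animal the ATP1B4 difference was 0.55 in place of 0.62.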

How the results depend on the processing

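No probe set passed under any alternative run, and the smallest adjusted p ranged from 0.112 (1 mean per dose, both doses weighted equally) to 1 (robust prior, and without low-dose replicate 1 or high-dose replicate 1). Probe sets at an unadjusted p under 0.05 ranged from 370 (only probe sets brighter than the median) to 1544 (without low-dose replicate 2). The count of probe sets on the same side at both doses, 63, was 41 with only those brighter probe sets, 152 with a minimum change of 0.3, 10 with 1, and 336 without untreated replicate 2 and low-dose replicate 1. With 1 animal left out it ranged from 68 to 411; fewer animals make groups without overlap easier to reach, yet the counts without untreated replicate 2 (411) and low-dose replicate 2 (188) were far above the others (68 to 97). The cause was not tested. In the same 2 cases the lower probe sets numbered 193 and 118 and the higher ones 218 and 70. The differences of the 31 named genes were recomputed 519 times, with 1 reversal, FOS at -0.01 without high-dose replicate 1, and its highest value was 1.10 without low-dose replicate 2. No dose difference of a named gene passed in any alternative run. No paired analysis was possible because the labels hold no replicate numbers. A fit with the tag pair of untreated replicate 2 and low-dose replicate 1 as a covariate gave 0 passing, 1292 at an unadjusted p under 0.05 and a smallest adjusted p of 0.308; the other tag pairs each lie in 1 group. With 1 animal left out at a time, 16 of the 35 list medians took both signs. Array signals near background hold no order, which limits ATP1B4, HMMR, TYMS, MELK, AREG, ID2 and RPL26.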
